A study of Mus musculus with 36 samples.

Results

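The progeny of Lrig1+ and of Lgr5+ hair follicle stem cells were compared one week after a second skin wound (1w pw2). The comparison used 6 of the 36 mini-bulk RNA-seq libraries, 3 of the Lrig1 GL (genetically labelled) population and 3 of the Lgr5 GL population. Its genes were the 18864 named in the count tables of both populations, out of 20181 in the Lrig1 GL table and 22587 in the Lgr5 GL table, with the gene Gm12415 left out. Of these, 16652 passed the filter on low counts and were tested. Each population stands in a table of its own, so population and batch of preparation or counting cannot be told apart in any result given here.

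Both groups came from mice that carry an EGFP-ires-CreERT2 allele, at Lrig1 in one group and at Lgr5 in the other, together with the Rosa26-fl/STOP/fl-tdTomato reporter. Hydroxytamoxifen was applied once to the tail skin, when the mice were 6 to 8 weeks old, and tdTomato then marked the recombined cells and their descendants. A full-thickness tail wound of 2 mm followed 1 week later (0w, at 7 to 9 weeks of age), an identical overlapping wound was made 8 weeks after the first (8w pw1), and the cells were taken 1 week after the second. The mice of all 6 time points, 0w to 1w pw2, were labelled in this way, and the 0w libraries came from unwounded skin. Small pools of tdTomato+ cells were sorted of skin that took in the wound bed together with follicles farther away, so that cells still in the follicle and cells that had left it were measured together. The driver alleles lie in Lrig1 and Lgr5 themselves, so the levels of these 2 genes are no independent check of the labels.

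The hair follicle is divided into compartments with their own stem cells. Lrig1+ cells sit in the junctional zone of the upper follicle and maintain the infundibulum and the sebaceous gland, whereas Lgr5+ cells sit in the lower bulge and hair germ and rebuild the hair. After a wound, descendants of both can leave the follicle and enter the epidermis, where keratinocytes switch on stress keratins, alarmins and motility genes and, once above the basal layer, replace keratins 5 and 14 by keratins 1 and 10.

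The libraries held 1528091 to 3143170 counts in Lrig1 GL and 2367230 to 6960537 in Lgr5 GL cells, and Gm12415 took 16.5% to 27.6% of the Lgr5 GL counts. Between 16214 and 16534 of the genes common to both tables had a count in a Lrig1 GL library, and 17438 to 18152 in a Lgr5 GL library. Pearson's r of log2 CPM (counts scaled to library size with TMM factors) was 0.871 to 0.883 within Lrig1 GL, 0.878 to 0.897 within Lgr5 GL and 0.746 to 0.811 between the populations. The log2 difference depended on base composition: its median over genes was 1.27 at 36% GC or less and -1.02 above 60% GC. Values are therefore also given with this trend removed, and the part of GC content in the results was not tested. A gene was called where the adjusted p (edgeR quasi-likelihood test, Benjamini-Hochberg) was under 0.05 and the log2 difference, Lrig1 GL minus Lgr5 GL, was above 1 in size.

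At 1w pw2, 1060 genes (6.37% of those tested) were called, 622 higher in Lrig1 GL (3.74%) and 438 higher in Lgr5 GL cells (2.63%). The genes higher in Lgr5 GL cells included the interleukin-33 receptor Il1rl1, which had the smallest adjusted p (5.03e-07), the bulge genes Krt15 and Sox9 and mesenchymal-type transcripts such as Vim and Lgals1. Those higher in Lrig1 GL cells included the suprabasal keratins Krt1 and Krt10, the fatty acid binding protein Fabp5 and the glucose transporter Slc2a1. With the GC trend removed, 381 genes were called, 265 higher in Lrig1 GL and 116 higher in Lgr5 GL cells, of which 200 and 106 were among those called without the correction. Leaving out Lrig1 GL replicate 2 left 275 calls, and leaving out Lrig1 GL replicate 3 left 694. Without Lgr5 GL replicate 1, 2 or 3, the number was 577, 491 or 392.

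**Figure D1:**
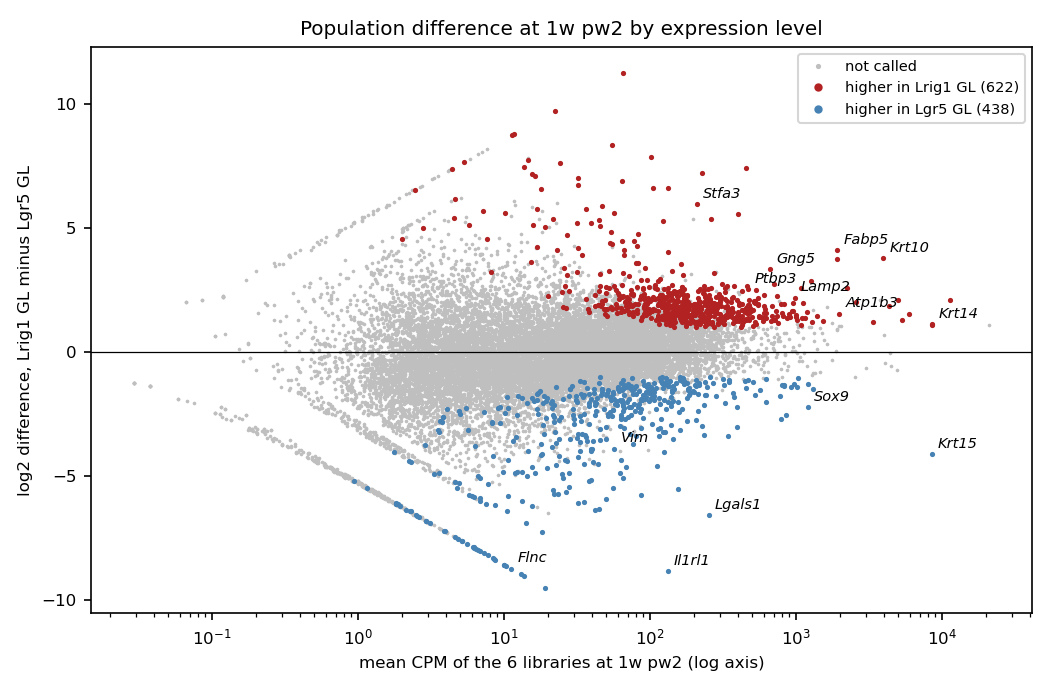
Log2 difference at 1w pw2 (y axis, Lrig1 GL minus Lgr5 GL) against the mean CPM of the 6 libraries (x axis, log scale), 1 point per gene, with the 622 genes called higher in Lrig1 GL in red and the 438 called higher in Lgr5 GL in blue. Krt15 combines a high level with a difference of -4.12, and the oblique lines of points at low level are genes without counts, or with very few, in one population.

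The bulge and lower follicle genes lay mostly on the Lgr5 GL side. Of 20 members tested, 7 were called higher in Lgr5 GL cells and 0 in Lrig1 GL cells, and the median log2 difference of the list was -1.96 against -0.16 over all genes tested. For this and every later list, the shares over all genes tested were 2.63% called higher in Lgr5 GL and 3.74% called higher in Lrig1 GL cells. Krt15, the keratin of bulge stem cells (GRCm38 chr11:100131758-100135928), measured 1102, 383 and 1281 CPM in Lrig1 GL cells, against 19809, 13702 and 14576 CPM in Lgr5 GL cells. The groups lay far apart, with a log2 difference of -4.12 ± 0.53 (SE, n = 3 per group; adjusted p = 1.07e-04), and the difference was -3.43 with the GC trend removed. Sox9, a transcription factor of bulge identity, measured 544, 271 and 462 CPM against 2129, 1842 and 1947 CPM, a difference of -2.21 ± 0.38 (adjusted p = 0.00103). Lgr5, a receptor for R-spondins, measured 23.4, 8.80 and 94.8 CPM against 419, 576 and 283 CPM (-3.36 ± 0.85, adjusted p = 0.0155), so that every library carried it but the Lrig1 GL libraries spread widely. The T-box factor Tbx1 differed by -3.16 ± 0.58 and the LIM homeobox factor Lhx2 by -3.11 ± 0.86. The other called members were Tcf7l1, a Wnt-pathway repressor (-2.53), and the growth factor Fgf18 (-4.40). Cd34, a surface marker of the bulge, measured 2.55, 12.4 and 18.5 CPM against 56.3, 147 and 82.6 CPM without a call (-3.11 ± 1.42, adjusted p = 0.196). The list had 4 calls with the GC trend removed, 3 without Lrig1 GL replicate 2 or without Lgr5 GL replicate 2, and 4 without Lrig1 GL replicate 1 or without Lgr5 GL replicate 3. Krt15, Sox9 and Tbx1 kept their call whichever of the 6 libraries was left out.

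The hair germ, hair shaft and inner root sheath list held several hair keratins at low levels, whereas Cdh3 measured 319 ± 34.9 against 549 ± 39.2 CPM (SD, n = 3). Of 16 members tested of 22 listed, 3 were called higher in Lgr5 GL cells and 0 in Lrig1 GL cells (median -2.73). They were Msx2 and Hoxc13, homeobox factors of the hair matrix (-3.83 ± 1.12 and -3.00 ± 0.79), and the hair keratin Krt35. Krt35 had 2 counts in the Lrig1 GL and 190 in the Lgr5 GL libraries, a ratio of 46 (95% counting interval 12.6 to 383, which covers counting error only). None of these calls held with the GC trend removed, without Lrig1 GL replicate 1 or 2, or without Lgr5 GL replicate 1 or 3, and 1 held without Lgr5 GL replicate 2. Tchh went the other way without a call, at 83.3 ± 47.0 against 8.39 ± 6.39 CPM (3.25 ± 1.16, adjusted p = 0.0901).

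Genes of the upper follicle lay on the Lrig1 GL side. Of 12 upper follicle members, 3 were called higher in Lrig1 GL cells and 0 lower (median 1.53). Ly6d, a surface protein of the upper follicle, measured 5116, 3799 and 3485 CPM against 1335, 872 and 847 CPM (2.02 ± 0.46, adjusted p = 0.00739). Gata6, the factor of the sebaceous duct, measured 57.5, 52.8 and 30.6 CPM against 7.16, 1.36 and 4.59 CPM (3.41 ± 1.00, adjusted p = 0.0373). The secreted kallikrein Klk10 measured 114, 352 and 327 CPM against 0.699, 5.88 and 1.02 CPM (6.61 ± 1.67, adjusted p = 0.0156). The groups did not overlap for any of the 3 genes, as for 16.3% of all genes tested with Lrig1 GL above and 21.5% with Lgr5 GL above. The upper follicle list kept its 3 calls with the GC trend removed, but had 1 without Lrig1 GL replicate 2 and 0 without Lgr5 GL replicate 3. Sprr1a and Ly6a, at differences of 3.16 ± 1.32 and 2.43 ± 0.84, were not called.

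Lrig1, which marks the population by its driver, did not follow the label. It measured 133, 106 and 103 CPM in Lrig1 GL and 120, 135 and 140 CPM in Lgr5 GL cells, so the groups overlapped (-0.21 ± 0.35, adjusted p = 0.771). The duct keratin Krt79 reached 1822 CPM in Lgr5 GL replicate 1 and 305 and 327 CPM in the other 2 Lgr5 GL libraries, against 2115, 1861 and 934 CPM in Lrig1 GL cells (1.00 ± 1.01). In bulk pools, fewer cells of a kind and less RNA per cell cannot be told apart, and this holds for every marker given here.

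Sebaceous gland genes were mixed. Among 14 tested, 2 were called higher in Lrig1 GL cells and 0 lower (median 0.66). Scd1, a fatty acid desaturase, measured 286, 442 and 457 CPM against 93.6, 49.3 and 68.3 CPM (2.49 ± 0.56, adjusted p = 0.00656). Mgst1, a microsomal glutathione transferase of sebocytes, measured 468, 429 and 322 CPM against 140, 30.5 and 18.3 CPM (2.67 ± 0.56, adjusted p = 0.00424). Both kept their call with the GC trend removed and without each of the 6 libraries. The fatty acid synthase Fasn (-1.26 ± 0.41, adjusted p = 0.0576) and the acyltransferase Dgat2 (-1.24 ± 0.58, adjusted p = 0.208) had negative differences without a call, with every Lgr5 GL library above every Lrig1 GL library. The median of the list was 0.26 and 0.25 without Lgr5 GL replicate 2 and 3, and 1.74 without Lgr5 GL replicate 1.

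**Figure D2:**
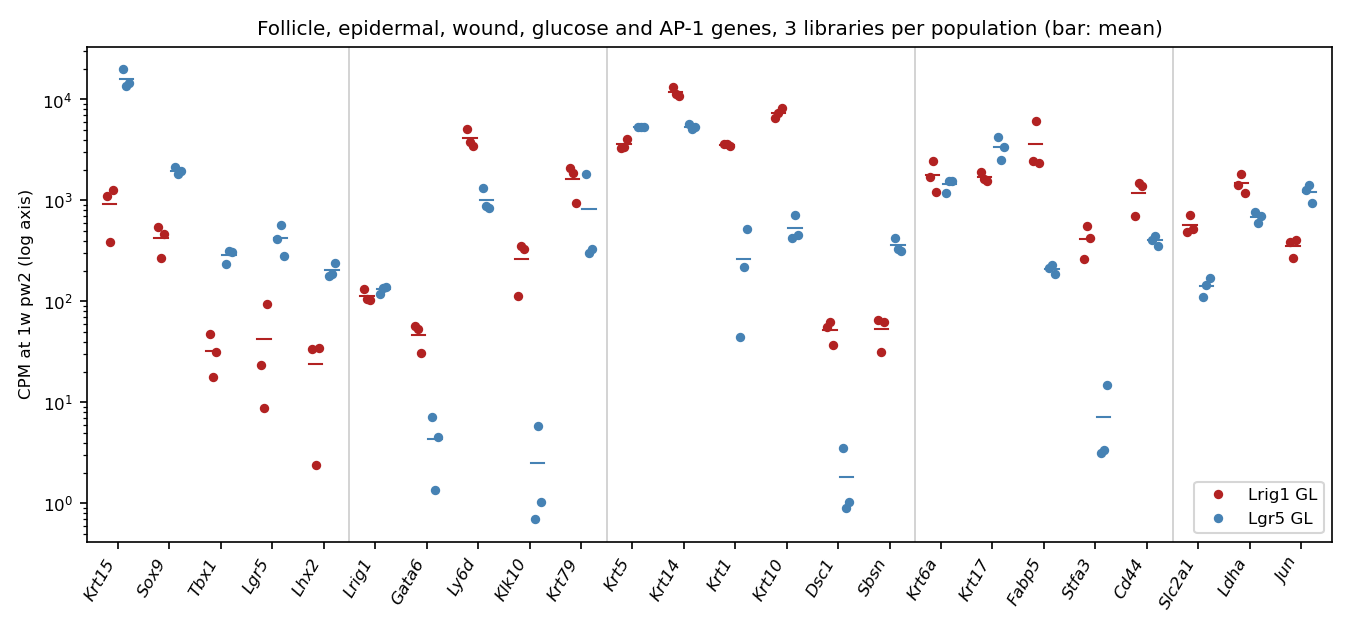
CPM at 1w pw2 (y axis, log scale) of 24 genes in each of the 3 Lrig1 GL (red) and 3 Lgr5 GL (blue) libraries, with a bar at the mean and vertical lines between bulge, upper follicle, epidermal, wound, and glucose and AP-1 genes. The populations lie apart for Krt15, Sox9, Krt10, Fabp5 and Stfa3 and overlap for Lrig1, Krt79 and Krt6a.

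The keratinocyte differentiation programme lay on the Lrig1 GL side. Of 19 interfollicular differentiation genes tested, 6 were called higher in Lrig1 GL cells and 1 lower (median 1.88). Krt10, the suprabasal type I keratin (GRCm38 chr11:99385254-99389364), measured 6568, 7292 and 8184 CPM in Lrig1 GL and 428, 712 and 458 CPM in Lgr5 GL cells. Its difference of 3.79 ± 0.94 (adjusted p = 0.0141) was 4.43 with the GC trend removed. Krt1, its type II partner, measured 3626, 3597 and 3430 CPM against 44.9, 217 and 526 CPM (3.76 ± 1.07, adjusted p = 0.0314), and the spread lay almost wholly within Lgr5 GL cells. The desmosomal cadherin Dsc1 measured 55.5, 62.4 and 37.0 CPM against 3.49, 0.905 and 1.02 CPM (4.73 ± 0.99, adjusted p = 0.00413). The remaining calls were the secreted peptide Krtdap (1.97 ± 0.50), the desmosomal cadherin Dsg1a (1.58 ± 0.49) and the differentiation factor Klf4 (1.46 ± 0.42). Suprabasin, Sbsn, went the other way at 65.2, 31.2 and 62.7 CPM against 426, 333 and 314 CPM (-2.76 ± 0.60, adjusted p = 0.00533). Late differentiation genes varied and had no call. Lor was low in both, at 4.09 ± 1.90 and 4.72 ± 2.33 CPM (SD, n = 3). Flg measured 19.8 ± 9.26 against 2.42 ± 1.37 CPM, and Cdsn 34.9 ± 38.5 against 131 ± 88.3 CPM.

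Under the GC correction Dsg1a lost the call and the other 5 differentiation genes higher in Lrig1 GL cells kept it. The number was 3 without Lrig1 GL replicate 1 or 3, 2 without Lrig1 GL replicate 2 or Lgr5 GL replicate 3, and 1 without Lgr5 GL replicate 1. Dsc1 kept its call without each library, Krt10 lost it without Lgr5 GL replicate 1 or 3, and Krt1 kept it only without Lgr5 GL replicate 3.

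Basal layer and hemidesmosome genes were split. Of 15 tested, 3 were called higher in Lrig1 GL cells and 2 lower (median -0.18). Krt14, the basal type I keratin, measured 13155, 11308 and 10811 CPM against 5712, 5068 and 5381 CPM (1.13 ± 0.27, adjusted p = 0.0114), and its difference was 1.96 with the GC trend removed. Its partner Krt5 measured 3301, 3419 and 4072 CPM against 5286, 5287 and 5285 CPM and was not called (-0.56 ± 0.23, adjusted p = 0.14). The integrin Itga6 differed by 1.61 ± 0.34 and the basal cell factor Trp63 by 1.15 ± 0.35. The laminin chain Lamb3 (-1.26 ± 0.30) and the linker plectin, Plec (-1.34 ± 0.26), were higher in Lgr5 GL cells, and both lost the call with the GC trend removed, as did Trp63. Without Lgr5 GL replicate 2 or 3, 1 member was called higher in Lrig1 GL, and without Lrig1 GL replicate 2, 1 was called higher in Lgr5 GL cells.

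Wound-activated keratinocyte genes gave calls in 1 direction. Of 23 tested, 5 were called higher in Lrig1 GL cells and 0 lower (median 1.56). Fabp5, a fatty acid binding protein of activated epidermis (GRCm38 chr3:10012548-10016607), measured 2439, 6054 and 2355 CPM in Lrig1 GL and 212, 230 and 189 CPM in Lgr5 GL cells. The difference was 4.10 ± 0.80 (adjusted p = 0.00285) and 4.28 with the GC trend removed. Stfa3, a stefin of a cluster of near-identical genes whose reads may be split between copies, measured 261, 554 and 423 CPM against 3.14, 3.39 and 14.8 CPM (5.97 ± 1.04, adjusted p = 0.00125). S100a8, an alarmin subunit, measured 958, 859 and 898 CPM against 14, 0 and 0 CPM (7.42 ± 2.04, adjusted p = 0.0258). The hyaluronan receptor Cd44 (1.56 ± 0.36) and the transcription factor Klf5 (1.90 ± 0.47) completed the calls.

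The stress keratins were not called at 1w pw2. Krt6a measured 1694, 2452 and 1214 CPM against 1195, 1563 and 1564 CPM (0.31 ± 0.44), and Krt17 measured 1908, 1635 and 1542 CPM against 4242, 2510 and 3372 CPM (-0.99 ± 0.46). Krt16 measured 489, 827 and 423 CPM against 97.1, 109 and 93.8 CPM (2.53 ± 0.95, adjusted p = 0.107), with no overlap between the groups. Krt6b, a close copy of Krt6a, differed by 1.73 ± 0.63 (adjusted p = 0.0994) and passed the threshold with the GC trend removed (2.41, adjusted p = 0.0385). With the GC trend removed, Fabp5, Stfa3, Cd44 and Klf5 kept the call and S100a8 lost it (6.99, adjusted p = 0.0515), so that with Krt6b the list again had 5 calls. It had 2 without Lrig1 GL replicate 2 or Lgr5 GL replicate 3 and 3 without Lgr5 GL replicate 2.

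Glucose uptake and lactate genes were also higher in Lrig1 GL cells. Of 24 glycolysis and hypoxia genes, 4 were called higher in Lrig1 GL cells and 0 lower (median 0.31). The glucose transporter Slc2a1 measured 484, 709 and 517 CPM against 110, 144 and 172 CPM (2.01 ± 0.46, adjusted p = 0.00744). Lactate dehydrogenase A, Ldha, measured 1430, 1811 and 1197 CPM against 762, 603 and 698 CPM (1.11 ± 0.30, adjusted p = 0.0235). The lactate exporter Slc16a3 measured 8.15, 38.8 and 37.8 CPM against 4.19, 1.13 and 1.02 CPM (3.62 ± 0.99), and the hypoxia factor Hif1a differed by 1.30 ± 0.37. The enzymes between uptake and lactate were not called, among them Hk1 at 0.02 ± 0.51 and Pgk1 at 0.42 ± 0.46. Once the GC trend was removed, Slc2a1, Ldha and Slc16a3 kept the call, Hif1a lost it (0.49, adjusted p = 0.569) and the pyruvate kinase Pkm gained it (1.16, adjusted p = 0.0257). The list had 0 calls without Lrig1 GL replicate 2 and 1 without Lgr5 GL replicate 2 or 3.

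Of 13 mitochondrially encoded transcripts, 5 were called higher in Lrig1 GL cells and 0 lower (median 1.28). They were mt-Nd1, mt-Nd5 and mt-Nd6, subunits of complex I, mt-Co1 of complex IV and mt-Cytb of complex III. mt-Co1 measured 22503, 21635 and 10781 CPM against 3423, 5428 and 4027 CPM (2.09 ± 0.51, adjusted p = 0.0113). None of the 5 calls held with the GC trend removed, where the median was 0.34, and none held without Lrig1 GL replicate 2. The list had 2 calls without Lgr5 GL replicate 1 and 1 without Lgr5 GL replicate 3. The share of counts on mitochondrial transcripts was 4.90% to 8.67% in Lrig1 GL and 3.01% to 3.72% in Lgr5 GL libraries.

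Among signalling genes, 2 of 20 AP-1 and immediate early genes were called higher in Lgr5 GL cells and 0 in Lrig1 GL cells (median -0.23). Over all genes tested these shares were 2.63% and 3.74%. Jun, a subunit of AP-1, measured 383, 270 and 401 CPM against 1255, 1414 and 945 CPM (-1.78 ± 0.43, adjusted p = 0.0117), and Jund differed by -1.69 ± 0.43. Neither was called with the GC trend removed, without Lrig1 GL replicate 2 or without Lgr5 GL replicate 2, and 1 was called without Lrig1 GL replicate 3. Of 19 genes of the EGF receptor ligand and ERK feedback list, 2 were called higher in Lrig1 GL cells and 0 lower (median -0.04). The ligand amphiregulin, Areg, measured 15.3, 15.2 and 1.43 CPM in Lrig1 GL and 0 in each of the Lgr5 GL libraries, which makes it at least 48.2-fold higher against a floor of 3 counts over the Lgr5 GL group. Dusp5, a phosphatase of ERK, measured 19.3, 14.8 and 9.97 CPM against 0.699, 3.17 and 0.510 CPM (3.25 ± 0.98). The list had 1 call without Lrig1 GL replicate 3 or Lgr5 GL replicate 2 and 0 without any of the other 4 libraries. Areg lost the call with the GC trend removed (adjusted p = 0.0605), and both did when the Lgr5 GL counts were thinned. The feedback inhibitor Spry2 was not called (-0.36 ± 0.30). Larger differences without a call went both ways. Spry1 (-3.00 ± 0.98, adjusted p = 0.0613), Etv4 (-2.46 ± 0.84) and Etv5 (-2.78 ± 1.27) lay on the Lgr5 GL side. The ligands Hbegf (2.82 ± 1.30) and Btc (7.31 ± 2.60) lay on the Lrig1 GL side. DESeq2 called 3 members of the list higher in Lrig1 GL and 2 higher in Lgr5 GL cells.

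Of 28 TGF-beta and BMP response genes, 4 were called higher in Lgr5 GL cells and 0 in Lrig1 GL cells (median -0.77). Id1, an inhibitor of basic helix-loop-helix factors and target of BMP, measured 52.4, 60.4 and 74.1 CPM against 271, 315 and 164 CPM (-2.01 ± 0.43, adjusted p = 0.00515). Its relatives Id2 and Id3 differed by -2.43 ± 0.59 and -1.75 ± 0.51. The matrix protein Ltbp2 had 2 counts over the Lrig1 GL and 390 over the Lgr5 GL libraries, a ratio of 94.5 (95% counting interval 26 to 783). After removal of the GC trend, Id2 kept the call, Id1, Id3 and Ltbp2 lost it, and Id4 gained it (-2.27, adjusted p = 0.0441). The count was 1 without Lrig1 GL replicate 2 or Lgr5 GL replicate 2, and 2 without Lrig1 GL replicate 3, Lgr5 GL replicate 1 or Lgr5 GL replicate 3. In the Wnt pathway list, 2 of 23 were called higher in Lgr5 GL cells and 0 in Lrig1 GL cells (median 0.25), the R-spondin receptor Lgr4 (-1.34 ± 0.41) and the frizzled receptor Fzd2 (-2.52 ± 0.74). Correction for GC content left Lgr4 with its call, Fzd2 lost it, and the ligands Wnt4 (1.65) and Wnt10a (1.45) were called higher in Lrig1 GL cells. Of the calls without this correction, 1 was left without Lrig1 GL replicate 3 and 0 without each of the other libraries. Of 31 cell cycle genes, the topoisomerase Top2a alone was called, higher in Lrig1 GL cells (1.86 ± 0.56, adjusted p = 0.0418; median of the list 0.37). It was not called with the GC trend removed or when any 1 library was left out. Over all genes tested, 3.74% were called higher in Lrig1 GL and 2.63% higher in Lgr5 GL cells, so 1 call among 31 genes was near the share over all genes. The Notch list had 0 calls among 13 genes tested. In the interferon and antigen presentation list of 18 genes tested, 1 was called, the peptide transporter Tap2, higher in Lgr5 GL cells (-1.65 ± 0.51), and of the fits without 1 library it kept the call only in that without Lrig1 GL replicate 3, and not with the GC trend removed.

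The list of migration, protease and protrusion genes had 6 of 30 called higher in Lgr5 GL cells and 2 in Lrig1 GL cells (median -0.04), where 2.63% and 3.74% of all genes tested were. The intermediate filament protein vimentin, Vim, measured 7.13, 6.40 and 7.84 CPM against 122, 82.5 and 115 CPM (-3.90 ± 0.55, adjusted p = 1.38e-04). Galectin-1, Lgals1, measured 10.2, 2.40 and 2.85 CPM against 627, 388 and 480 CPM (-6.58 ± 0.95, adjusted p = 1.51e-04). Fibronectin, Fn1, the actin crosslinkers Actn1 and Actn4, and zyxin, Zyx, were also higher in Lgr5 GL cells, and the integrin Itgav and the GTPase Cdc42 were higher in Lrig1 GL cells. After the GC correction Vim, Lgals1 and Fn1 kept the call and the other 5 lost it, and without Lgr5 GL replicate 3, 0 remained higher in Lrig1 GL cells.

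Some markers of other cell types were also higher in Lgr5 GL cells. Of 8 fibroblast genes tested of 12 listed, 4 were called higher in Lgr5 GL cells (Col1a1, Col1a2, Col6a1 and Dcn), and the summed level of the list was 70.4 to 180 CPM in Lrig1 GL and 485 to 718 CPM in Lgr5 GL libraries. Decorin, Dcn, measured 0, 1.20 and 2.14 CPM against 84.9, 85.7 and 91.7 CPM. Collagen Col1a1 measured 0.509, 0 and 2.14 CPM against 19.6, 26.0 and 25.5 CPM, whereas the fibroblast receptor Pdgfra measured 3.56, 2.40 and 0 CPM against 0.874, 0.226 and 3.06 CPM. Col1a1 kept its call without each library, and the list had 1 call without Lrig1 GL replicate 2, 2 without Lrig1 GL replicate 1 or 3 or Lgr5 GL replicate 2 or 3, and 2 with the GC trend removed. Sums over the members tested were 6 to 12.2 against 29.8 to 49.3 CPM for melanocyte genes (5 of 9 tested), with Sox10 called. They were 5.7 to 14.3 against 44.3 to 99.9 CPM for Merkel cell genes (3 of 6), with Krt8 called. Of the muscle and red cell list 3 of 10 were tested, none of them a red cell gene. These summed to 15.7 to 21.4 against 95.3 to 228 CPM, with Acta2 called. Immune genes (4 of 16 tested) summed to 0.509 to 17.8 against 0.452 to 21.1 CPM. Endothelial genes (2 of 7 tested) summed to 5.6 to 6.8 against 1.53 to 5.88 CPM, with 0 calls in either list. Acta2 lost the call whichever of the 6 libraries was left out, and Sox10 and Krt8 lost the call without 4 and 5 of them. All 3 lost it with the GC trend removed. The part of other cell types in the population difference was not tested.

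The genes with the smallest adjusted p and separated groups were taken by rule, 14 in each direction. On the Lgr5 GL side stood the interleukin-33 receptor Il1rl1, which had 3 counts in all Lrig1 GL libraries together and 3303 in the Lgr5 GL libraries, a ratio of 534 (95% counting interval 182 to 2590). It measured 0, 0.400 and 1.43 CPM against 334, 201 and 256 CPM. The SoxD factor Sox13 measured 2.55, 1.6 and 17.1 CPM against 288, 240 and 381 CPM (-5.52 ± 0.80). The calcium-binding S100a4 measured 2.04, 5.60 and 8.55 CPM against 119, 102 and 173 CPM (-4.62 ± 0.69), and the phosphodiesterase Pde11a differed by -6.06 ± 0.87. Filamin C, Flnc, had 0 counts in Lrig1 GL and 264 in Lgr5 GL libraries, at least 42.6-fold higher in Lgr5 GL cells against a floor of 3 counts over the Lrig1 GL group. Cux1 and Kmt2d, a homeobox factor and a histone H3 methyltransferase, the metal transport protein Cnnm4 and the reductase Cyb5r3 were higher by 1.75 to 3.00 on the log2 scale. Mir6236 differed by -4.87 ± 0.64, and its counts are reads over its exon in a library made from polyadenylated RNA, not a measure of the mature microRNA. All 14, including Krt15, Sox9, Vim and Lgals1, kept the call with the GC trend removed.

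On the Lrig1 GL side, the splicing regulator Ptbp3 measured 465, 998 and 935 CPM against 125, 177 and 114 CPM (2.53 ± 0.36, adjusted p = 1.38e-04). Atp1b3, a subunit of the sodium pump, measured 2674, 3462 and 2678 CPM against 1187, 958 and 871 CPM (1.55 ± 0.22), and its difference was 1.58 with the GC trend removed. The lysosomal membrane protein Lamp2 measured 1309, 1807 and 1706 CPM against 385, 334 and 331 CPM (2.2 ± 0.31). The G protein subunit Gng5 measured 806, 1844 and 968 CPM against 144, 94.5 and 121 CPM (3.33 ± 0.48). The metalloprotease Adam10 (2.06 ± 0.34), the serpin Serpinb5 (1.97 ± 0.29), the polyamine acetyltransferase Sat1 (2.08 ± 0.31) and the redox protein Fam213a (2.75 ± 0.39) were among the others, with Taf13, Mapk6, Dcun1d5, Zc3h15, Capza2 and Sptssa. Serpinb5 and Capza2 lost the call with the GC trend removed. All 28 genes kept the call when any 1 of the 6 libraries was left out, but they were chosen for small adjusted p and separated groups in these same libraries. Of all 83 named genes with a call, 40 kept it without each of the 6 libraries.

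The calls carried the GC dependence of the whole comparison. Median exon GC content was 42.7% for genes higher in Lrig1 GL, 54.9% for genes higher in Lgr5 GL and 49.1% for all tested, and among the 381 genes called with the trend removed it was 48.8% and 49.6%. The median log2 difference of the lowest GC class stood at 0 in unwounded skin, and it was 0.95 at 1w pw1 and 2.09 at 8w pw1.

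**Figure D3:**
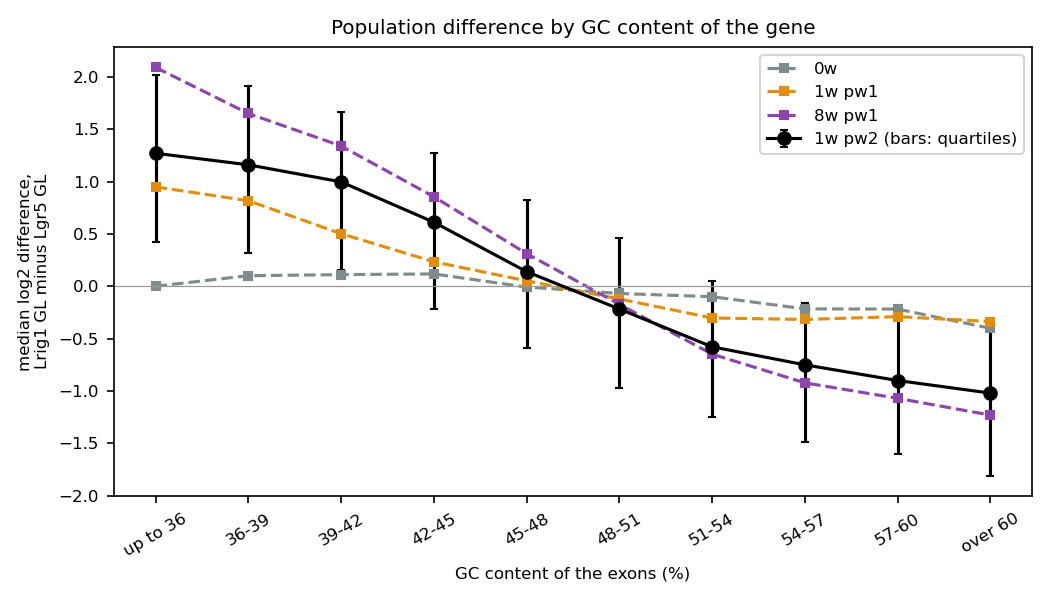
Median log2 difference, Lrig1 GL minus Lgr5 GL (y axis), in 10 classes of exon GC content in percent (x axis), at 1w pw2 (black, bars show the quartiles over genes) and at 0w, 1w pw1 and 8w pw1 (dashed). At 1w pw2 the median falls from 1.27 in the lowest class to -1.02 in the highest, and at 0w from 0 to -0.40.

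The same comparison was made at the other 5 time points to see whether the population difference at 1w pw2 was already present. It had 444 calls at 0w (2.67% of genes), and 1963 at 8w pw1 (11.8%). Between them it had 599 at 1w pw1 (3.6%), 298 at 2w pw1 (1.79%) and 584 at 4w pw1 (3.51%). Of the 622 genes higher in Lrig1 GL cells at 1w pw2, 399 (64.1%) were called in the same direction at 8w pw1, where 6.28% of all tested genes were, and 42 (6.75%) at 0w, where 1.06% were. Of the 438 higher in Lgr5 GL cells, 248 (56.6%) were called at 8w pw1, where 5.51% were, and 90 (20.5%) at 0w, where 1.6% were. At 1w pw1, 11.1% of the 622 genes were called against 2.05% of all tested, at 2w pw1 8.84% against 0.673%, and at 4w pw1 15.6% against 1.77%. For the 438 genes the shares were 23.5% against 1.55% at 1w pw1, 18.7% against 1.12% at 2w pw1 and 23.5% against 1.74% at 4w pw1. In all, 171 and 124 of the genes (27.5% and 28.3%) were called at no other time point, against 90.6% and 91.5% of all tested. At all 5, 1 and 18 (0.161% and 4.11%) were called, against 0.00601% and 0.114%. With the GC trend removed at every time point, 43% of the 381 genes were also called at 8w pw1 and 22.6% at 0w, where 3.27% and 3.26% of all tested genes were. Pearson's r of the log2 differences with those at 1w pw2, over 16652 genes that share their tables, GC content and level across time points, was 0.509 at 8w pw1 and 0.282 to 0.337 at the others.

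Single genes followed different courses. Il1rl1, Vim and Lgals1 were called higher in Lgr5 GL cells at all 6 time points. Krt15 was called at every time point except 4w pw1 (-0.94), with a difference of -1.83 at 0w. Sox9 was called at 8w pw1 (-1.99) and 1w pw2 alone, at -0.71 at 0w. Krt10 was called at 0w (3.33), 1w pw1 (4.72), 4w pw1 (3.74) and 8w pw1 (4.05), and stood at 0.95 at 2w pw1. Slc2a1 and Fabp5 were called at 1w pw2 alone, with differences at 0w of 0.10 and 1.94, and Mapk6 likewise. Lamp2, Ptbp3 and Adam10 were called at 8w pw1 and 1w pw2.

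**Figure D4:**
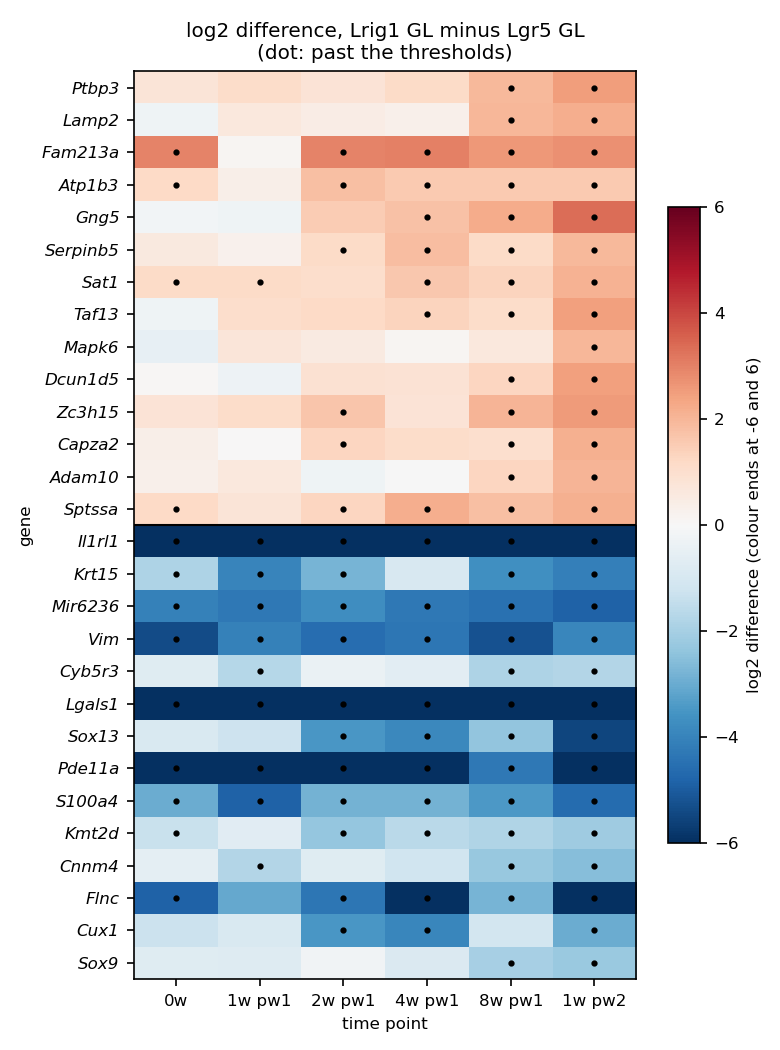
Log2 difference, Lrig1 GL minus Lgr5 GL (colour, which ends at -6 and 6), of the 14 genes named by rule on each side (y axis) at the 6 time points (x axis), with a dot where a gene passed the thresholds. The Lgr5 GL side holds genes called at all time points, such as Vim, and the dots of the Lrig1 GL side gather at 8w pw1 and 1w pw2.

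The second question was whether the populations differed in their change from unwounded skin (0w) to 1w pw2. The test of the difference of the change, which shares its 1w pw2 libraries with the comparison above, called 15 genes (0.0901% of those tested; adjusted p under 0.05), all more positive in Lrig1 GL cells. In the opposite direction 0 were called by edgeR, where 957 had an unadjusted p under 0.05, and DESeq2 called 85, edgeR's likelihood ratio test 75 and limma-voom 4. Within single populations, edgeR called 486 genes as changed from 0w to 1w pw2 in Lrig1 GL, 321 up (1.93%) and 165 down (0.991%), 2.92% in all, and 0 in Lgr5 GL cells, where 783 had an unadjusted p under 0.05. Without Lgr5 GL 1w pw2 replicate 3, 0 genes had a different change, and without Lrig1 GL 0w replicate 2 or 3 there were 49 or 53. The number was 26 or 3 without Lrig1 GL 1w pw2 replicate 1 or 2 and 4 without Lgr5 GL 1w pw2 replicate 2. Leaving out 1 of the Lgr5 GL 0w libraries, whose numbers are not given, gave 13, 25 or 5.

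Gja1, the gap junction protein connexin 43 (GRCm38 chr10:56377330-56402513), measured 161, 102 and 194 CPM at 0w and 1338, 2111 and 1585 CPM at 1w pw2 in Lrig1 GL cells. In Lgr5 GL cells it measured 758, 695 and 1163 CPM at 0w and 1116, 649 and 761 CPM at 1w pw2. It rose by 3.46 on the log2 scale in Lrig1 GL cells, its estimate in Lgr5 GL cells was -0.05, and the changes differed by 3.51 ± 0.57 (adjusted p = 0.00886). Its level at 1w pw2 was not called between the populations (0.99 ± 0.40).

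Rab31, a GTPase of endosome traffic, measured 0, 1.76 and 3.42 CPM at 0w and 125, 139 and 104 CPM at 1w pw2 in Lrig1 GL cells, against 45.9, 47.2 and 25.6 CPM and 135, 48.6 and 57.1 CPM in Lgr5 GL cells (5.15 ± 0.85, adjusted p = 0.00886). Grip1, a scaffold of glutamate receptors and cell adhesion, measured 1.10, 0.882 and 0 CPM at 0w and 9.17, 35.6 and 54.9 CPM at 1w pw2 in Lrig1 GL cells, against 9.48, 67.4 and 85.4 CPM and 16.9, 42.5 and 6.63 CPM (6.74 ± 1.16, adjusted p = 0.00886). For these 3 genes the level at 1w pw2 was not called between the populations. Their lower Lrig1 GL level at 0w enters the test by which they were selected, so it is no separate observation.

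Mapk6, the atypical kinase ERK3, measured 107, 121 and 77.3 CPM at 0w and 271, 602 and 561 CPM at 1w pw2 in Lrig1 GL cells, against 150, 149 and 125 CPM and 94.2, 139 and 124 CPM in Lgr5 GL cells (2.48 ± 0.43, adjusted p = 0.00886). Lamp2 (2.46 ± 0.43), Gng5 (3.51 ± 0.64), Taf13, a subunit of the general factor TFIID (2.73 ± 0.52), and the selenoprotein Selenot (2.72 ± 0.54) also had a more positive change, and all 5 were called higher in Lrig1 GL cells at 1w pw2. The other called genes were the endoplasmic reticulum chaperones Pdia3 and Erp44, Arid4b, Snx2 and 3 unprocessed pseudogenes. With the GC trend removed 2 genes were called, Grip1 and Rab31.

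**Figure D5:**
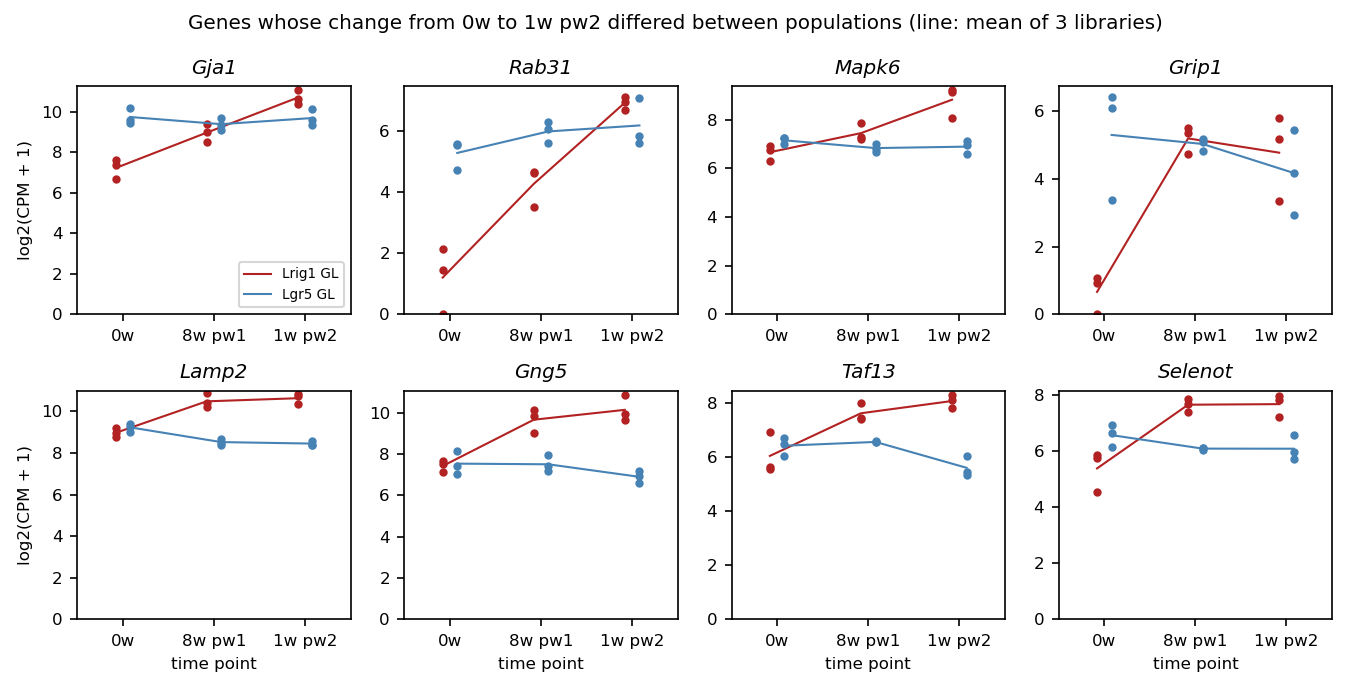
Level, log2(CPM + 1) (y axis), of the 8 genes named by rule for a different change, at 0w, 8w pw1 and 1w pw2 (x axis), in Lrig1 GL (red) and Lgr5 GL (blue) libraries, with 1 point per library and a line through the means of 3. The red lines climb from 0w while the blue lines stay nearly level or fall, except for Rab31, and for Lamp2, Gng5, Taf13, Selenot and Grip1 most of the red climb lies before 8w pw1.

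The third question was the change from just before the second wound (8w pw1) to 1w pw2. The test of its difference called 0 genes by edgeR, where 830 had an unadjusted p under 0.05, and DESeq2 called 12. Within Lrig1 GL cells 2 genes (0.012%) were called as changed, both higher at 1w pw2, and within Lgr5 GL cells 0, where 466 had an unadjusted p under 0.05. Differences of the change for genes above were 1.36 for Mapk6, 1.39 for Gja1, 2.31 for Rab31, 0.38 for Grip1 and 0.21 for Lamp2.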

How the data were processed

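Mini-bulk RNA-seq was made from sorted tdTomato+ cells with an oligo(dT), Smart-seq2-type protocol without molecular identifiers. The authors trimmed reads with Trim Galore 0.5.0, aligned them to mm10/GRCm38 with HISAT2, assigned reads to genes with featureCounts (exons, GENCODE M20), and deposited raw counts, not normalized, with a separate table for each population. The lowest maximum over libraries of any gene was 2 counts in the Lrig1 GL table and 3 in the Lgr5 GL table, and no strand setting is given in the sources used here, so overlapping and antisense genes cannot be told apart. All columns were matched to the labels (columns not used: 0), and libraries labelled 9W are those at 1w pw2. For 21 libraries, none of them at 1w pw2, the columns give the group but not which labelled sample.

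Genes named in both tables were kept and Gm12415 was removed before scaling. All 36 libraries, as 12 groups of 3, were fitted with edgeR 4.0.16 in R 4.3.3 (filterByExpr minimum of 10 counts, TMM factors from 0.745 to 1.23, quasi-likelihood test, 24 residual degrees of freedom), and p-values were adjusted over 16652 genes. The groups share 1 estimate of the spread. Standard errors are the log2 difference divided by the root of the F statistic. Differences at a time point needed an adjusted p under 0.05 and a log2 difference above 1 in size, and differences of a change the adjusted p alone. The GC trend was removed as a smooth offset per library on exon GC content from GENCODE M21, which named 18753 of 18864 genes. Positions are from M21 on GRCm38. Pairing by replicate number was not used, since libraries of the same number at 1w pw2 deviated from their group means with Pearson's r of 0.0381, 0.00814 and 0.0317. With 3 libraries against 3, an exact permutation test cannot give p below 0.1. Each library is a labelled replicate of its group, from n = 3 mice per group by the study's account. Alternatives included DESeq2 1.42.0, limma 3.58.1 and surrogate variables from sva 3.50.0.

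Named genes were the 14 called genes per direction with the smallest adjusted p, separated groups and a mean of at least 10 CPM, up to 8 per direction for each change, up to 4 called members per list and a set of identity and wound genes. Gm and Rik symbols were counted only. Further members were named to complete a count, after their values were seen. The comparison, the genes and the lists were chosen with earlier results of these data known. On simulated counts for the difference at 1w pw2, 26% of genes changed by 2 on the log2 scale and 50% of those changed by 3 were recovered. For the difference of the change these shares were 9% and 26% from 0w and 12% and 22% from 8w pw1. The simulation changed 100 genes of each size among 15963, all above a count floor, with no other group difference and no GC trend. It changed fewer genes than were called in the data, so its shares do not measure the sensitivity of the comparison itself.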

Additional observations from a re-analysis of the deposited data

Results flagged for a closer look

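The populations differed in their change from 0w to 1w pw2 for 15 genes by the test of that difference itself, all with a more positive change in Lrig1 GL cells. Among the 8 named, the difference of the log2 change was 6.74 for Grip1, 5.15 for Rab31, 3.51 for Gja1 and 3.51 for Gng5. It was 2.73 for Taf13, 2.72 for Selenot, 2.48 for Mapk6 and 2.46 for Lamp2. With the GC trend removed the adjusted p was 0.025 for Grip1 and 0.0234 for Rab31, and it was from 0.104 to 0.292 for the other 6. Without Lgr5 GL 1w pw2 replicate 3, none of the 8 was called.

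Some signal lay in data that the comparison did not use. Gm12415, removed before scaling, took at least 16.5% of the deposited counts in each Lgr5 GL library at 1w pw2 (16.5% in replicate 2, Wilson 95% interval 16.5 to 16.6, counting error only) and at most 0.000196% in the Lrig1 GL libraries. Genes with a row in 1 table only could not be compared. Of these, Sv2b, a synaptic vesicle protein, averaged 498 CPM in the Lgr5 GL libraries, and Maob, a monoamine oxidase, averaged 32.4 CPM in the Lrig1 GL libraries, both scaled to the deposited counts.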

How the results depend on the processing

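The number of genes called different at 1w pw2 (1060) was 1721 with the likelihood ratio test, 1866 with DESeq2, 3041 with limma-voom and quality weights, 2381 with the 6 libraries alone, 381 with the GC trend removed and 80 with glmTreat against a log2 of 1. Settings that kept it within 1.5 times (other size factors, Gm12415 kept, other filters, robust fit, 2 surrogate variables, thinned Lgr5 GL counts and adjusted p alone) gave 1001 to 1153. In the 6 libraries alone, removal of the GC trend, chosen after seeing the data, lowered the count from 2381 to 1053. Leaving out 1 library gave 275 to 763. With the replicate number as a block in the 6 libraries alone, 1869 were called, although libraries of the same number did not deviate together. Removing the GC trend moved the median of all genes from -0.16 to 0.03, and 31 of the 83 named genes with a call lost it while Krt6b, of those without, gained one. mt-Nd6 turned to -0.0128 with the 6 libraries alone and the GC trend removed. The share of genes called at 1w pw2 that were also called at another time was 12.5% at 0w, 16.2% at 1w pw1, 12.9% at 2w pw1, 18.9% at 4w pw1 and 61% at 8w pw1, and with the GC trend removed, also chosen after seeing the data, 22.6%, 18.9%, 31.8%, 34.9% and 43%.

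The count for the change from 0w (15) was 26 with other size factors, 25 with Gm12415 kept, 36 with a filter at 30 counts, 25 with the robust fit, 240 with the likelihood ratio test, 323 with DESeq2, 6 with 2 surrogate variables, 25 with thinned counts, 2 with the GC trend removed and 3 with 12 libraries alone. Leaving out 1 library gave 0 to 53. For the change from 8w pw1 (0), it was 3 with the likelihood ratio test, 12 with DESeq2, 2 with limma-voom, 1 with 2 surrogate variables and 1 with 12 libraries alone, and 0 to 1 without a library. The 2 changes were analysed without pairing, since the labels name no pairs of mice across time points or populations. The 0w and 8w pw1 columns of at least 1 population also do not carry the labels' replicate numbers. The cause of these shifts was not tested. In simulated data a difference of 2 on the log2 scale was often missed, so a gene without a call may still differ.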

Other observations

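Among genes with a row in 1 table only, 58 had at least 10 counts in each Lgr5 GL library at 1w pw2 and 4 had so in each Lrig1 GL library. Those of Lgr5 GL cells included Lox and Loxl1, enzymes that crosslink collagen and elastin, at 18.6 and 13.3 CPM, Cilp, a cartilage matrix protein, at 24.5 CPM, and the growth factor Fgf7 at 11.0 CPM. Those of Lrig1 GL cells included the leukotriene receptor Cysltr1 at 16.9 CPM and Fgf13 at 13.6 CPM. Xist, the RNA of the inactive X chromosome, measured 1169, 1877 and 2950 CPM in Lrig1 GL and 322, 713 and 815 CPM in Lgr5 GL libraries (1.70 ± 0.69, adjusted p = 0.141). The Y-linked Uty and Kdm5d, with a row for Lgr5 GL only, had 1, 1 and 4 and 1, 5 and 2 counts there. Both sexes of mice were used in the study, and the part of sex in the difference was not tested.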
